A study of Neurospora crassa OR74A with 15 samples.

Results

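A set of 45 genes of the filamentous fungus Neurospora crassa was chosen for high expression on pectin and on orange peel powder, out of 9733 loci measured. A gene entered the set where its lowest value over 3 pectin and 2 orange peel libraries was at least 50 FPKM (fragments scaled by transcript length and by library size) and at least 3 times its highest value over 9 libraries (Avicel, no carbon and sucrose). All 45 also passed the filter on low values used for tests, a mean of at least 1 FPKM. Of 56 genes past both limits, 11 were set aside because they belong to 15 genes that the rule names and leaves out. Among those 15 the gene table gives symbols to NCU02369 (gh28-1), NCU06961 (gh28-2) and NCU00642 (gh35-1). The gh28 genes belong to the glycoside hydrolase family that holds the polygalacturonases. Because pectin, peel, Avicel, no-carbon and sucrose values chose the 45 genes, their levels in these groups, and the differences of pectin and peel from the others, are a description and carry no test. Tests are given only for contrasts that the rule did not draw (peel with pectin, and Avicel, no carbon and sucrose with each other). The rule bounded the values in these too, so the members' shares called there describe the set as chosen, and the shares of all genes beside them serve for orientation only.

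All cultures were mycelia of the wild-type strain FGSC 2489, grown for 16 h on 2% sucrose, washed without carbon and held for 4 h on the new medium. The groups were 1% pectin (3 libraries), 1% orange peel powder (2), 2% xylan (1), 2% Avicel, a microcrystalline cellulose (3), 2% sucrose (3), and the same salts without carbon (3). Replicates are called biological in the design text. The 6 pectin, peel and xylan libraries are labelled as made for the study and the 9 others come from an earlier source, so between these sets source and carbon cannot be told apart.

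Pectin is a plant cell wall polysaccharide with a backbone of galacturonic acid, in places alternating with rhamnose, and side chains rich in arabinose and galactose. Fungi that feed on it secrete enzymes against the backbone and the side chains, and take up and metabolise the sugars set free. Orange peel is rich in pectin and also holds cellulose, hemicellulose and soluble sugars. Xylan is a hemicellulose with a xylose backbone that often carries arabinose.

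The mapped sequence implied by the deposited coverage was 60.4 megabases in Avicel replicate 1 and 61.9 in sucrose replicate 1, and 209 to 1052 in the 7 other earlier libraries. It is unknown for the 6 new ones. Correlations between replicates of a group, across genes, lay between 0.904 and 0.992. The mycelial gene hex-1 (a protein of the plugs of hyphal septa) had group means of 19034 to 33103 FPKM. Summed over 7 genes taken as markers of conidia and aerial hyphae, FPKM was 528 to 1776 on sucrose. The sum was 15168 to 41881 on pectin and peel, 26093 on xylan, 92981 to 158459 on Avicel and 345572 to 384162 without carbon. The largest part was ccg-1 in every library but no-carbon replicate 1, where it was eas, and on xylan ccg-1 read 24537. There ccg-1 and con-10 lay above their pectin means, and con-6, con-8, con-13, eas and fl below. The sum thus does not stand for each marker, nor for an amount of such cells. Whether these genes, ccg-1 above all, are confined to such cells was not tested. Of these markers 4, 1 and 2 were listed at 0 in sucrose replicates 1, 2 and 3, and con-13 also in xylan, and none elsewhere. Their part in the results was not tested. In such bulk RNA, fewer cells with a transcript and less of it per cell cannot be told apart.

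**Figure D1:**
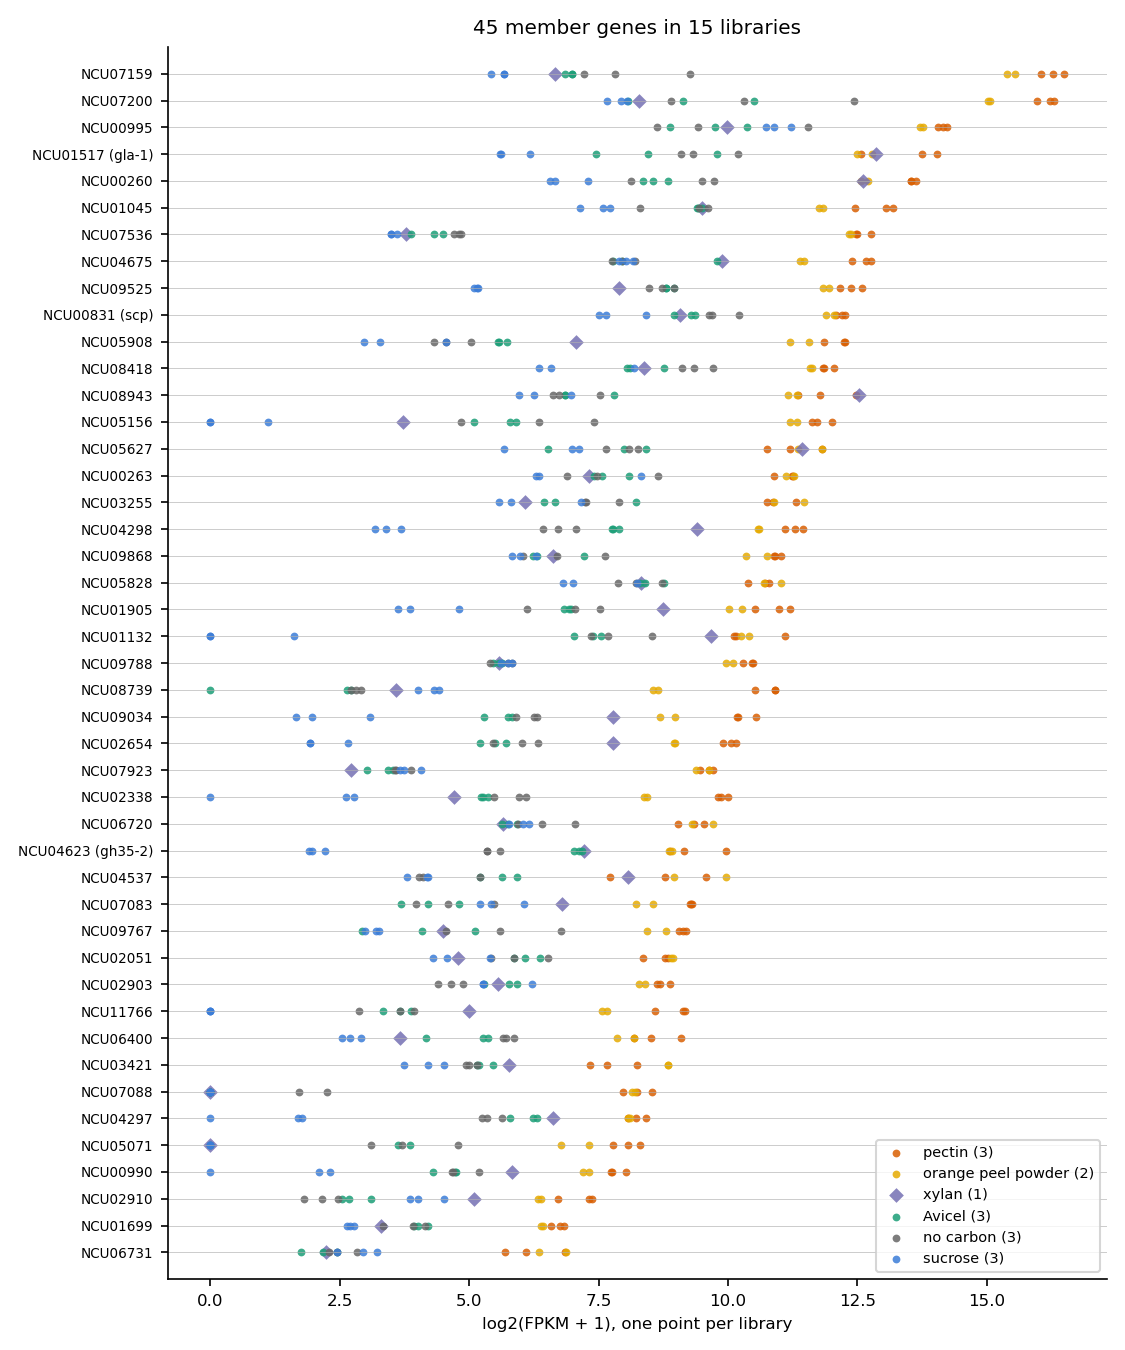
Expression of the 45 genes (rows, ordered by mean FPKM on pectin and peel) as log2(FPKM + 1), with a point for each of the 15 libraries coloured by carbon source and a diamond for the single xylan library. Pectin and peel points lie to the right of all Avicel, no-carbon and sucrose points, as the rule requires, while the xylan diamond lies among the latter in 26 rows and at or beyond the lowest pectin or peel point in 5.

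Together the 45 genes held 5.66 to 6.85% of the summed FPKM of a pectin library and 4.03% and 4.15% on peel. Their share was 0.796% on xylan, 0.145 to 0.192% on Avicel, 0.208 to 0.454% without carbon and 0.0538 to 0.102% on sucrose. The 15 left-out genes held 3.47 to 3.59% on pectin and 1.57% on xylan. The plot of all members by library shows the range: 3 members averaged at least 10000 FPKM over the 5 pectin and peel libraries, 24 at least 1000, and the lowest, NCU06731, 85.8. The ratio of a member's lowest pectin or peel value to its highest Avicel, no-carbon or sucrose value, called its margin here, had a median of 4.90 and ran from 3.03 to 185.9. It was 10 or more for 10 members and under 5 for 24.

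The most abundant member, NCU07159 (contig 10.5, 6393940 to 6395650), stood at 79920.2, 92609 and 68186 FPKM on pectin and at 42811 and 48019 on peel. Elsewhere it read 99.8 on xylan, 125, 126 and 114 on Avicel, 148, 613 and 226 without carbon, and 41.8, 49.9 and 50.3 on sucrose. By mean FPKM it ranked 1 of all 9733 loci on pectin and 3 on peel, but 4536 on xylan and 5649 on sucrose. NCU07200 (contig 10.5, 6261934 to 6263231) ranked 2 on pectin, at 76726, 80822 and 64441 FPKM, with 33416 and 34379 on peel. Outside these it read 312 on xylan, 1459, 560.5 and 269 on Avicel, 474, 5519 and 1267 without carbon, and 202, 263 and 245 on sucrose. These 2 genes alone made up 2.99 to 4.01% of the summed FPKM on pectin, and each had its highest value outside pectin and peel in no-carbon replicate 2. The gene table gives no symbol to either.

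NCU00995 (contig 10.1, 6456305 to 6457345) had 19212, 18246 and 16994 FPKM on pectin and 13411 and 13983 on peel. It also kept 2370.4, 1899 and 1698 on sucrose, against 1329, 857 and 469 on Avicel, 394, 2976 and 686 without carbon and 1015 on xylan. It was therefore well expressed in every library, with a margin of 4.51. NCU01045 (contig 10.5, 2755422 to 2756461), the only member with 2 transcripts, had 9282, 8535 and 5638 FPKM on pectin and 3485 and 3674 on peel. Its other values were 726 on xylan, 689, 719 and 676 on Avicel, 316, 690.2 and 777 without carbon and 141, 192 and 209 on sucrose. Peel lay below every pectin library for both genes.

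The widest margin belonged to NCU07536 (contig 10.3, 4453253 to 4454650). It read 5777, 5707 and 6945 FPKM on pectin and 5162 and 5326 on peel. In the 10 other libraries it lay between 10.2 and 27.8, with 12.7 on xylan, 13.7, 21.5 and 18.9 on Avicel, 27.8, 27.0 and 25.2 without carbon and 11.2, 10.3 and 10.2 on sucrose. Every Avicel value lay above every sucrose value and below every no-carbon value, and xylan lay between sucrose and Avicel. NCU05908 (contig 10.6, 3500912 to 3503078) had 4827, 4903 and 3709.8 FPKM on pectin, 2351 and 3017 on peel and 132 on xylan. It had 52.2, 46.5 and 45.9 on Avicel, 18.9, 31.9 and 22.4 without carbon and 22.5, 8.71 and 6.83 on sucrose, so that xylan lay above all 9 of these, at a small part of the pectin level. Its margin was 45.1. NCU07923 (margin 42.7) had 793, 705 and 838 FPKM on pectin, 790.1 and 669.7 on peel, 5.58 on xylan, and 7.17 to 15.7 in the 9 earlier libraries.

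The member listed at 0 most often was NCU07088, a short locus of 425 bases (contig 10.6, 202294 to 202718). It read 300.4, 371 and 251 FPKM on pectin and 284 and 295 on peel. It was listed at 0 on xylan, in all Avicel and sucrose libraries and in no-carbon replicate 1, and read 3.75 and 2.26 in no-carbon replicates 2 and 3. NCU05071 was likewise listed at 0 on xylan, in all sucrose libraries and in Avicel replicate 1. Its values were 266, 219 and 316 FPKM on pectin, 158 and 109 on peel, 11.4 and 13.4 in Avicel replicates 2 and 3, and 7.57, 11.9 and 26.4 without carbon. With NCU11766, described with its neighbour below, 3 members were listed at 0 in every sucrose library.

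Symbols were available for 3 members. NCU01517 is gla-1, which encodes a glucoamylase, an enzyme that releases glucose from starch. Its values were 6102, 16879.9 and 13678 FPKM on pectin, 7090.4 and 5748 on peel and 7456 on xylan. Against these stood 886, 349 and 173 on Avicel, 1173, 641 and 544 without carbon and 70.9, 47.5 and 48.2 on sucrose. Its pectin libraries overlapped the peel libraries, and xylan lay within their joint range. NCU04623 is gh35-2, of the glycoside hydrolase family that holds beta-galactosidases, enzymes that remove galactose. It had 569, 468 and 994 FPKM on pectin, 483 and 466 on peel and 148 on xylan. Avicel libraries read 129.7, 137 and 144, no-carbon libraries 39.8, 39.5 and 47.4, and sucrose libraries 2.73, 3.63 and 2.91, so the 3 groups did not overlap. NCU00831, scp, had 4701, 4357 and 4876 FPKM on pectin, 3792 and 4237 on peel and 534 on xylan. Its earlier libraries read 498, 658 and 619 on Avicel, 789, 1191 and 826 without carbon and 342, 181 and 199 on sucrose.

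Just inside the fold limit lay NCU01132 and NCU04675, both with a margin of 3.03, and NCU05828 with 3.07. Just outside lay NCU01136 with 2.99, NCU06206 with 2.96 and NCU02653 with 2.87. At the FPKM limit the lowest members were NCU06731 at 50.9, NCU02910 at 79.0 and NCU01699 at 83.2 FPKM. The nearest genes outside were NCU07581 at 48.4, with a margin of 23.0, then NCU10056 at 6.40 and NCU09773 at 4.44. NCU04675 (contig 10.5, 1228379 to 1229297) had its highest earlier value in Avicel replicate 1, at 885 FPKM, where Avicel replicates 2 and 3 read 219.8 and 245. It had 6939.5, 6511 and 5402 on pectin, 2681 and 2849 on peel, 944 on xylan, 216, 247 and 295 without carbon and 260.1, 288 and 238 on sucrose. NCU05828 read 1337, 1766 and 1681 FPKM on pectin, 1667 and 2087 on peel, 317 on xylan, 314, 435 and 337 on Avicel, 234, 419.6 and 297 without carbon and 302, 111 and 127 on sucrose. NCU01699 had 113, 107 and 94.3 FPKM on pectin, 83.2 and 85.5 on peel and 8.86 on xylan, with 5.20 to 17.4 in the 9 earlier libraries. NCU06731 had 67.3, 50.9 and 114 FPKM on pectin, 116 and 80.3 on peel, 3.69 on xylan, and 2.36 to 8.34 in the earlier libraries.

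The rule did not use xylan, and the single xylan library allows no test. In that library 5 members were at or above their lowest pectin or peel value, 14 lay between it and their highest Avicel, no-carbon or sucrose value, and 26 were at or below the latter. On the log2(FPKM + 1) scale 14 members were nearer to the mean of pectin and peel and 31 nearer to the mean of the 9 earlier libraries. The left-out genes divided the other way, with 12 of 15 nearer to pectin and peel. The ratio of the xylan value to the mean on pectin had a median of 0.0846 over the members (0 to 1.51). It was 0.352 over the left-out genes and 0.898 over the 8911 loci with a value on pectin. The rule chose members by the pectin, peel and earlier values that xylan is set against here. A low ratio is thus favoured by the choice, and the gap to all loci is not read as a property of the members.

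The 5 members at or above their lowest pectin or peel value on xylan were gla-1, NCU00260, NCU08943, NCU05627 and NCU04537. NCU08943 (contig 10.5, 5781016 to 5782031) had the highest ratio of xylan to mean pectin, 1.51, at 5936 FPKM on xylan. It had 2612, 3509.9 and 5681 on pectin, 2296 and 2591 on peel, 222, 114 and 114 on Avicel, 96.9, 105 and 183 without carbon and 124, 61.3 and 75.1 on sucrose. This xylan value lay above each of the 14 other libraries. NCU00260 (contig 10.3, 3201033 to 3202325) read 6254 FPKM on xylan, between its peel values of 6093 and 6717 and below 11938, 12647 and 11949 on pectin. Earlier libraries gave 457, 327 and 374 on Avicel, 720.4, 277 and 853 without carbon and 157, 99.9 and 93.1 on sucrose. NCU05627 read 2765 on xylan, 2361, 3600.1 and 1732 on pectin, 3599 and 2628 on peel, 254, 338 and 90.4 on Avicel, 272, 307 and 199 without carbon and 49.7, 138 and 126 on sucrose. For NCU04537 the xylan value of 266 FPKM lay within a wide pectin range of 209.5, 442 and 762, with 996 and 499 on peel. It had 36.1, 59.7 and 48.6 on Avicel, 15.3, 35.9 and 16.3 without carbon and 13, 17.4 and 17.1 on sucrose, and its coefficient of variation on pectin, 58.9%, was the highest among members. In the authors' deposited table of clusters, which holds pooled expression over the same conditions and is no independent measure, gla-1, NCU00260, NCU05627 and NCU08943 stand in cluster 6, of 183 genes. The same table places 40 of the 45 members in cluster 10, of 555 genes.

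At the other end, NCU07088 and NCU05071 were listed at 0 on xylan, and NCU07159, NCU07536 and NCU05156 read 0.00124, 0.00207 and 0.00345 times their mean on pectin. The xylan library listed 1871 of 9733 loci at 0, against 936 to 1029 in the pectin and peel libraries. Its depth is unknown, so a 0 there need not mean absence. NCU05156 (contig 10.6, 3545827 to 3547617) had 4110.2, 3140.4 and 3357 FPKM on pectin and 2358 and 2569.7 on peel. It had 12.2 on xylan, 58.9, 54.3 and 33.3 on Avicel, 27.6, 170.2 and 80.7 without carbon, and 0, 1.15 and 0 on sucrose. Its xylan value was thus under every Avicel and no-carbon value. The 8 most abundant members therefore split on xylan. NCU07159, NCU07200, NCU00995, NCU01045, NCU07536 and NCU04675 lay nearer to the earlier libraries there, and gla-1 and NCU00260 nearer to pectin and peel.

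Orange peel powder was compared with pectin with limma on log2(FPKM + 1) over all 14 libraries of replicated groups. A gene was called where its Benjamini-Hochberg adjusted p over the 8700 genes tested was under 0.05 and its absolute log2 fold change at least 1. No member was called in either direction: 0 of 45, beside 0.149% of all genes called higher and 0.161% called lower. The lowest adjusted p was 0.115, and 13 members had an unadjusted p under 0.05, of which 12 were lower on peel and 1 higher. The members' median log2 fold change was -0.49 (-2.17 to 1.09) and 36 were negative, beside a median of -0.02 over all genes. Both peel values lay below all 3 pectin values in 29 members, 64.4%, as in 22.6% of all genes tested. They lay above in 2, as in 18.3% of all genes, and the groups overlapped in 14 members. Of the left-out genes 4 of 15 were called lower, with a median log2 fold change of -1.0. The rule's limits on the lowest pectin or peel value bear on this contrast, since a gene with a large drop on peel is less apt to pass them. Of these 4, NCU00972, NCU00809 and NCU08176 miss the 3-fold limit, with margins of 0.391, 2.25 and 0.977. Avicel replicate 1 held the highest other value for all 3, so Avicel bears on these margins too. NCU00972, NCU00809 and NCU08176 read up to 1106, 245 and 2411 FPKM on Avicel, beside lowest pectin values of 1413, 2046 and 7564. The last of the 4, NCU05965, had a log2 fold change of -1.64 on peel and yet meets both limits, with a margin of 21.8.

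**Figure D2:**
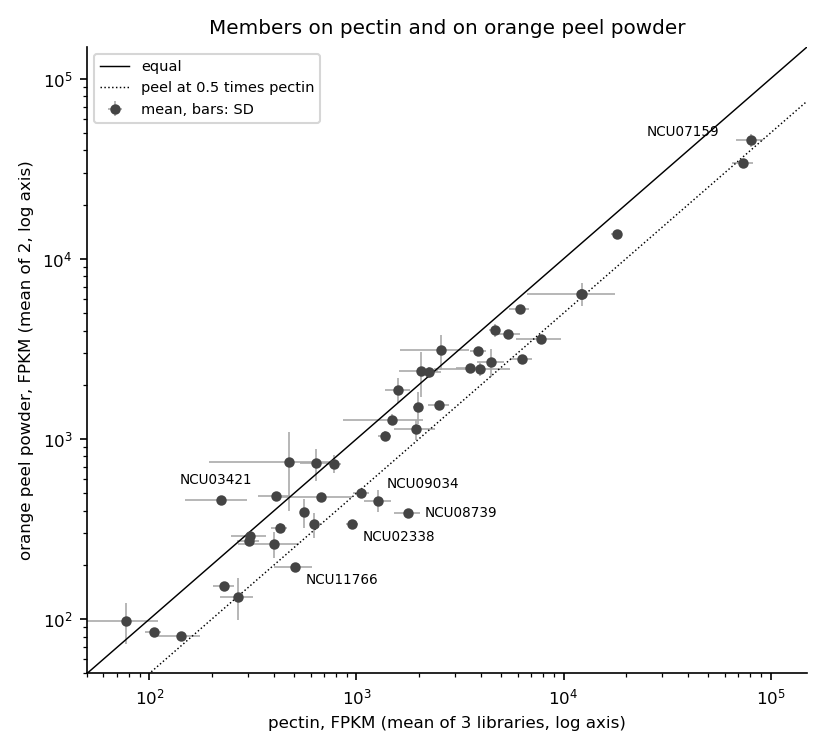
Mean FPKM of each of the 45 genes on pectin (3 libraries, horizontal) and on orange peel powder (2 libraries, vertical), both on log axes, with SD bars, a solid line of equality and a dotted line at 0.5 times the pectin value. Most points lie between the lines, NCU08739, NCU09034, NCU02338 and NCU11766 lie farthest below the dotted line, and NCU03421 lies above equality.

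The largest difference was that of NCU08739 (contig 10.2, 3848627 to 3850597), at 1919.6, 1469 and 1927 FPKM on pectin and 402 and 376 on peel. The groups were far apart, with a log2 fold change of -2.17 ± 0.61 (SE; limma adjusted p 0.185). Its other values were 11.0 on xylan, 0, 5.24 and 5.56 on Avicel, 6.07, 6.53 and 5.57 without carbon and 15.1, 18.9 and 20.3 on sucrose. NCU02338 had 1025, 932 and 899 FPKM on pectin and 344 and 331 on peel, a log2 fold change of -1.49 ± 0.61. NCU09034 had 1151, 1175 and 1495 on pectin and 411 and 500.1 on peel, -1.48 ± 0.35. Both were without overlap, and their adjusted p values in limma were 0.42 and 0.123. In the opposite direction stood NCU03421, at 160.1, 202 and 303 FPKM on pectin and 455 and 459 on peel, a log2 fold change of 1.09 ± 0.27 (adjusted p 0.14). The fit takes its spread from all groups, the 2 shallow libraries included. Without Avicel replicate 1 and sucrose replicate 1, 6 members were called lower, and 161 genes in all instead of 27. The 6 were NCU08739, NCU02338, NCU09034, NCU04675, NCU11766 and NCU02654, with limma adjusted p of 0.00013 to 0.0334. In a fit to the 2 groups alone 7 members were called lower, the same genes and NCU07200, with 187 genes called in all. Without no-carbon replicate 2, Avicel replicate 1 or sucrose replicate 1 alone the number was 1, 2 and 2.

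Within the 9 earlier libraries the members differed most between sucrose and the 2 other conditions. Without carbon 29 of 45 members were called higher than on sucrose, 64.4% beside 34.2% of all genes, and 2 were called lower, 4.44% beside 18%. The median log2 fold change was 1.41, against 0.38 over all genes. On Avicel 26 members were called higher than on sucrose, 57.8% beside 30.3%, and 3 lower, 6.67% beside 18.4%, with a median of 1.34 against 0.24. Both comparisons share the sucrose libraries. Of the 3 conditions sucrose had the lowest mean in 34 members, and the highest was that without carbon in 23, on Avicel in 15 and on sucrose in 7. The rule capped the highest of these values relative to pectin and peel, so the counts describe the set as chosen and the gap to all genes is not read as a property of its members. Under quantile normalization the counts were 22 higher and 6 lower without carbon, and 19 higher and 5 lower on Avicel. That setting moved the median of all genes in these comparisons to 0.05 and 0.01, and the share of higher among called genes from 65.5% to 54.4% without carbon and from 62.2% to 50.6% on Avicel.

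**Figure D3:**
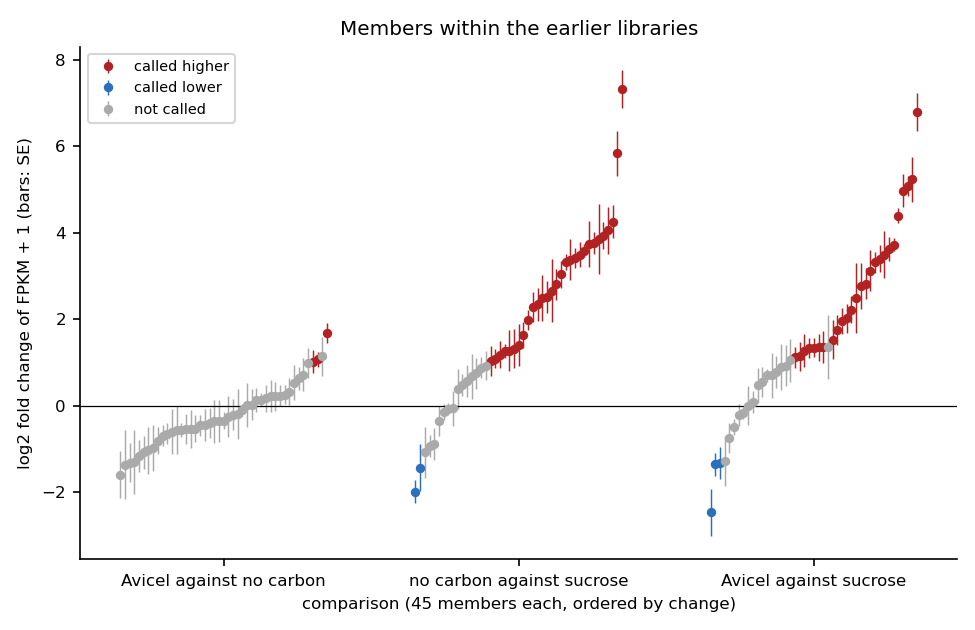
log2 fold change of FPKM + 1 of the 45 genes with SE bars, for Avicel against no carbon, no carbon against sucrose and Avicel against sucrose, ordered by size within each. Red points were called higher and blue points lower: 3 and 0, 29 and 2, and 26 and 3 genes.

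The largest rise was that of NCU01132 (contig 10.5, 2983159 to 2984946). It read 0, 2.06 and 0 FPKM on sucrose, 368, 162 and 203 without carbon and 129.6, 185 and 167 on Avicel. The log2 fold changes against sucrose were 7.31 ± 0.44 without carbon and 6.78 ± 0.44 on Avicel (SE; limma adjusted p 4.5e-08 and 7.75e-08). On pectin it had 1115, 1138 and 2202, on peel 1348 and 1218, and on xylan 816, so xylan stood between the sets. NCU05156, whose values are given above, rose by 5.83 ± 0.52 without carbon and by 5.23 ± 0.52 on Avicel, again from values of 0 or near it on sucrose. With 2 of 3 sucrose libraries listed at 0, these fold changes depend on the pseudocount of 1 FPKM.

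Of the 3 members with the largest drop from pectin to peel, NCU02338 and NCU09034 rose against sucrose, whereas NCU08739 was called lower. NCU02338 read 0, 5.81 and 5.14 FPKM on sucrose, 67.2, 43.7 and 61.2 without carbon, 39.9, 36.3 and 37.6 on Avicel and 25.1 on xylan, and its log2 fold changes were 4.05 and 3.49. NCU09034 read 7.42, 2.13 and 2.88 on sucrose, 74.8, 58.5 and 78.8 without carbon, 38.0, 55.8 and 53.1 on Avicel and 218 on xylan, and its log2 fold changes were 3.93 and 3.40. Neither gene's sucrose range met its range without carbon or on Avicel.

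Called lower than on sucrose were NCU08739 and NCU02910 without carbon, and NCU08739, NCU02910 and NCU07083 on Avicel. NCU02910 (contig 10.1, 8725837 to 8727092) had 13.4, 15.2 and 21.9 FPKM on sucrose, 4.82, 5.41 and 7.55 on Avicel and 3.43, 4.54 and 2.51 without carbon. It fell by 1.99 without carbon and by 1.36 on Avicel on the log2 scale (limma adjusted p 4.08e-05 and 0.000885), and had 103, 158 and 164 on pectin, 79.0 and 82.8 on peel and 33.1 on xylan. NCU08739 had log2 fold changes of -1.43 without carbon and -2.46 on Avicel (adjusted p 0.0333 and 0.00167). Its call without carbon was lost in 7 of the alternatives, among them the removal of each no-carbon library. NCU07083 had 65.5, 36.1 and 41.7 FPKM on sucrose, 26.7, 17.5 and 11.8 on Avicel, 14.6, 43.7 and 23.2 without carbon, 109 on xylan, 626, 631 and 615 on pectin and 298 and 373 on peel. It fell by 1.33 on Avicel (adjusted p 0.00726).

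Between Avicel and no carbon few members were called. On Avicel 3 were called higher, 6.67% beside 4.03% of all genes, and 0 lower, beside 2.33%; 6 and 8 members had an unadjusted p under 0.05 in limma in these directions. gh35-2 was higher by 1.68 ± 0.23 (adjusted p 0.00056), in each of the 3 Avicel libraries. NCU04298 was higher by 1.07 ± 0.18 (adjusted p 0.00202). NCU02903 was higher by 1.02 ± 0.26 (adjusted p 0.0277), with 38.0, 53.7 and 59.6 FPKM on Avicel and 20.1, 24.0 and 28.5 without carbon, beside 72.8, 37.3 and 37.4 on sucrose, 46.1 on xylan, 414, 469 and 392 on pectin and 335 and 309.7 on peel. The call of NCU02903 was lost under 7 alternatives, and without no-carbon replicate 2 gh35-2 alone kept its call. Without no-carbon replicate 1, 3 members were called lower on Avicel, and without Avicel replicate 1, no-carbon replicate 2 or sucrose replicate 1, 1 each.

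No-carbon replicate 2 stood apart for a number of members. The rule used its values, so the shares given here describe the set as chosen. Their gap to all loci is not read as a property of the members. No-carbon replicate 2 was the highest value outside pectin, peel and xylan in 12 of 45 members, 26.7%, as in 11.5% of 9066 loci. Its ratio to the mean of no-carbon replicates 1 and 3 had a median of 1.27 over the members and 0.953 over 8795 loci. At least 2-fold higher there were 10 members, 22.2%, as were 5.54% of those loci. They were led by NCU07200 at 6.34, NCU00995 at 5.51, NCU07088 at 3.31, NCU07159 at 3.28, NCU05156 at 3.14 and NCU09767 at 3.10 times. NCU00263, NCU09868, NCU07083 and NCU04537 followed at 2.73, 2.33, 2.31 and 2.27 times. At the low end NCU00260 read 0.353 times and NCU01905 0.433 times the mean of the 2 other libraries. On xylan 8 of the 10 were at or below their highest value of the 9 earlier libraries, as were 26 of all 45. No-carbon replicate 2 can itself set that highest value. The summed conidia markers of this library, 345572 FPKM, were the lowest of the 3 without carbon, but the single markers did not go together. In this library fl was lowest, at 94.0 FPKM against 223 and 198, and con-6 highest, at 5383 against 1516 and 4879. The other markers lay between replicates 1 and 3. What sets this library apart was not tested. Without it 48 genes would have met the rule.

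**Figure D4:**
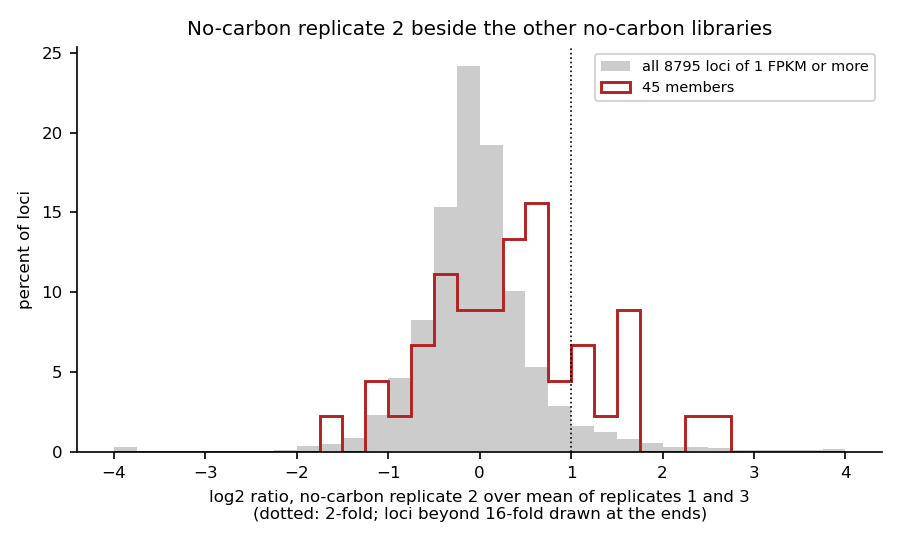
Distribution of the log2 ratio of no-carbon replicate 2 to the mean of no-carbon replicates 1 and 3, as percent of loci, for 8795 loci (grey) and the 45 genes (red outline), with a dotted line at 2-fold. Of the 45 genes 22.2% lie at or beyond the dotted line, as do 5.54% of all loci. The rule used the no-carbon values, so this describes the set as chosen.

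Members lay on 7 contigs, from 3 on contig 10.4, of 1489 loci, to 11 on contig 10.5, of 1580 loci. Contig 10.1, with the most loci of these, 2346, held 9. Directly adjacent were NCU04297 and NCU04298, 2046 bases apart on contig 10.5. NCU04298 (5545356 to 5547638) had 2789.8, 2208 and 2498 FPKM on pectin, 1543 and 1540.0 on peel, 679 on xylan, 216, 218 and 237 on Avicel, 104, 85.1 and 134 without carbon and 11.8, 8.10 and 9.49 on sucrose. NCU04297 (5541065 to 5543309) had 296, 339.7 and 268 on pectin, 268 and 275 on peel, 97.8 on xylan, 54.6, 74.6 and 78.6 on Avicel, 36.9, 48.5 and 39.6 without carbon and 0, 2.24 and 2.39 on sucrose. By group means both genes followed the order pectin, peel, xylan, Avicel, no carbon and sucrose, at levels far apart, although pectin and peel overlapped for NCU04297. Their log2 fold changes against sucrose were 3.32 and 4.25 without carbon and 4.39 and 4.96 on Avicel.

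NCU11766 (contig 10.4, 4671660 to 4672904) overlaps the left-out gene gh28-2 by 54 bases. It had 577, 557 and 386 FPKM on pectin, 187 and 201 on peel, 31.0 on xylan, 9.05, 13.7 and 11.7 on Avicel, 14.4, 6.30 and 11.7 without carbon and 0 in each sucrose library. Peel lay below all pectin libraries here too. Reads in the shared stretch cannot be assigned to either gene, since the protocol names no step that marks strand. The level of gh28-2 was far higher, at 42839, 34758 and 34637 FPKM on pectin, 16723.5 and 17096.5 on peel and 3017 on xylan. It had 700, 478 and 516 on Avicel, 684, 337 and 675 without carbon and 0 in each sucrose library. Reads of gh28-2 may thus add to the values of NCU11766, and how much was not tested. NCU00990 (contig 10.1, 6476265 to 6477882), with 1 locus between it and the left-out NCU00988, had 261, 216 and 214 FPKM on pectin and 145 and 159 on peel. It had 55.4 on xylan, 25.3, 18.8 and 26 on Avicel, 24.7, 24.5 and 35.4 without carbon and 0, 3.96 and 3.28 on sucrose. Further pairs of members within a few loci were NCU00260 and NCU00263 with 2 between, NCU00995 and NCU00990 with 3, NCU07088 and NCU07083 with 4, and NCU05908 and NCU05156 with 5.

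The genes on either side of a member were chosen by position and could be tested where the members could not. There were 87 that were neither members nor left out, of which 75 passed the filter on low values. On pectin 22 were called higher than without carbon, 29.3% of those tested beside 10.4% of all genes, and 5 lower, 6.67% beside 10.9%. On peel 19 were called higher, 25.3% beside 10.4%, and 5 lower, beside 10.7%. The 2 comparisons share the no-carbon libraries, and the number on peel was 12 without peel replicate 1 and 11 without peel replicate 2. The neighbours called higher in either comparison lay a median of 570 bases from their member, and all neighbours 1542. Of the 87, only NCU11615 overlaps its member, NCU01045, by 54 bases, and it was not called. Reads in that stretch cannot be assigned to either gene. As these groups come from the 2 sources of libraries, source and carbon cannot be told apart.

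**Figure D5:**
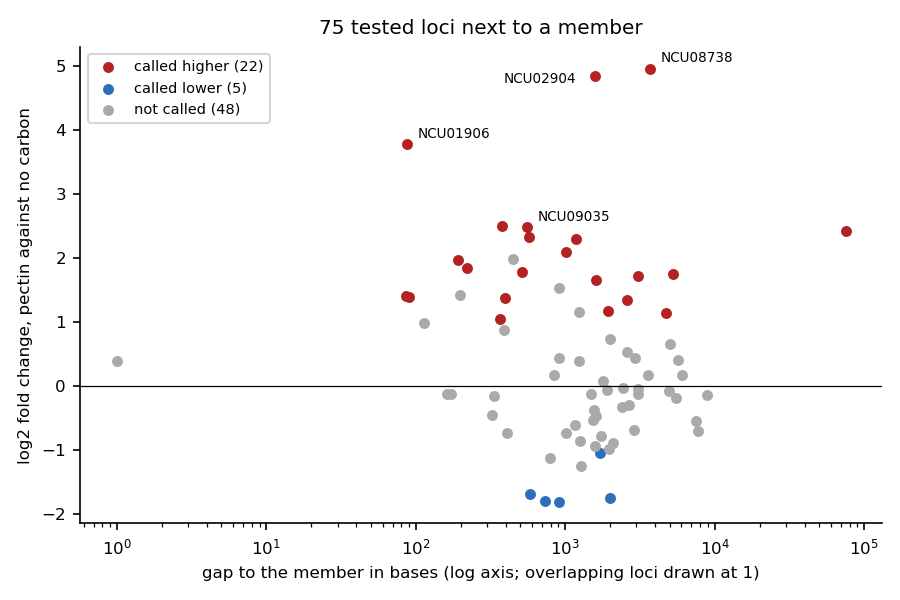
log2 fold change of pectin against no carbon of the 75 tested genes next to a member, against the gap to that member in bases on a log axis, coloured by call (22 higher, 5 lower, 48 not called). The largest changes are those of NCU08738 at 3722 bases, NCU02904 at 1595 bases and NCU01906 at 88 bases.

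The neighbour with the largest rise, NCU08738, lies 3722 bases from NCU08739. It had 926, 746 and 802 FPKM on pectin, 459 and 425 on peel, 64.6 on xylan and 44.3, 20.1 and 18.3 without carbon, a log2 fold change of 4.96 ± 0.28 on pectin (limma adjusted p 2.22e-07). Its 129, 158 and 145 FPKM on sucrose kept it under the 3-fold limit, with a margin of 2.69. NCU02904, 1595 bases from NCU02903, had 1306, 1727 and 1475 on pectin, 1949 and 1519.6 on peel and 39.3, 49.7 and 68.6 without carbon, a log2 fold change of 4.84 ± 0.59 (adjusted p 0.000106). Its sucrose libraries read 804, 118 and 114, and the highest of these was the shallow replicate 1. NCU01906, 88 bases from NCU01905, had 4676, 4205 and 3612 on pectin, 2247 and 2525 on peel, 4105 on xylan, 456, 916 and 1138 on Avicel and 267, 225 and 450.4 without carbon, a log2 fold change of 3.78 ± 0.31 (adjusted p 5.16e-06). Each of these 3 genes missed the rule through its highest value on sucrose or Avicel. Among the other neighbours called higher on pectin were gh31-3, next to NCU04675, and ad-8, next to NCU09788.

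The remaining members are given by their ranges. NCU09525, NCU08418, NCU00263, NCU03255, NCU09868, NCU01905, NCU09788 and NCU02654 averaged from 1055 to 5374 FPKM on pectin. NCU06720, NCU09767, NCU02051 and NCU06400 averaged from 398 to 639.5. Of these 12, NCU09788 had the widest margin, 17.8, at 1431, 1411 and 1256 on pectin, 996 and 1087 on peel and 41.5 to 55.8 in the 9 earlier libraries, with 46.6 on xylan. NCU09525 was lowest on sucrose, at 34.4, 35.1 and 33.2 FPKM, against 353 to 496 on Avicel and without carbon and 238 on xylan. NCU09767 had 8.23, 8.56 and 6.94 on sucrose and 22.6, 108 and 47.1 without carbon, and NCU02051, at 5076 bases the longest member, had 326 to 457 on pectin and 476 and 493 on peel.

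The median locus length of the members, which the rule did not use, was 1743 bases, beside 1782 over all loci. Their median coefficient of variation between pectin libraries, from values that the rule did use, was 14.8%, beside 14.9%.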

How the data were processed

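Poly(A) RNA was isolated from mycelia on oligo dT beads, and cDNA was made from its fragments by random priming, as the labels' protocols say. The authors deposited a table of FPKM values for each of 15 libraries, gene-level in the 6 new ones and transcript-level in the 9 earlier ones, and 1 clustering table with their pooled FPKM per carbon source. The transcript-level tables also hold a coverage signal, per the file headers, whose ratio to FPKM gave the mapped megabases. TopHat 1.2.0, Cufflinks 0.9.3 and Cuffdiff are named, with no role, per the submitters' processing notes. Build and annotation: not given in the sources used here.

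Loci were joined by coordinates (9733, of which 863 carry different identifiers in the 2 kinds of table), keeping gene-level identifiers and summing all transcripts of a locus (164 loci have more than 1). Among the 863 are the members NCU00260 and NCU11766, named NCU11179 and NCU11797 at transcript level. Positions follow the deposited tables, counted from 1. Gene symbols are RefSeq's for assembly NC12, whose table holds 44 of the 45 members. The members, the lists and the alternatives were chosen with earlier results of these data known.

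The model was limma 3.58.1 (R 4.3.3) on log2(FPKM + 1) with a moderated variance trend over the 14 libraries of the 5 replicated groups, leaving 9 residual degrees of freedom, for the 8700 genes that averaged 1 FPKM or more. On this scale changes of low genes are understated. Tests are two-sided, and calls need an adjusted p under 0.05 together with a log2 fold change of 1 or more in size. FPKM are not counts, and an exact 0 is given as listed at 0. The code was tested on simulated data.

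Values in every library are given for the 8 most abundant members, up to 5 called members per direction and comparison with the largest change, the 5 highest and 5 lowest ratios of xylan to pectin, members with a symbol, adjacent members and members just inside a limit. Genes just outside a limit are given by the values the rule used. Other members were named after their values were seen.

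Same-numbered Avicel and sucrose libraries deviated together (r of 0.181, 0.12 and 0.179 across genes). So did pectin and peel (0.107 and 0.213) and, more weakly, peel and no carbon (0.132 and 0.0135). With 2 peel libraries, the deviations of one mirror those of the other, so these values say little. The other pairs of groups had at least 1 negative same-numbered value. Avicel replicate 3 and sucrose replicate 2 also deviated together, at 0.157, so whether the numbers pair the libraries is not known. Alternatives changed the pseudocount (0.1, 5), the filter (none, 5 FPKM), the scaling (upper quartile, quantile), the variance trend, the groups in the fit, the replicate number as a block, the libraries used (each replicate out, both shallow libraries out), the join (by identifier) and the limits of the rule. Summing only transcripts whose ends match the locus was added after the data were seen.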

Additional observations from a re-analysis of the deposited data

How the results depend on the processing

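Of 675 recomputed values for single genes, 647 kept their direction and side of the threshold, 16 lost a call, 12 gained one and 0 changed sign. The number of members was 71 at 2-fold, 21 at 5-fold, 126 when joined by identifier (43 shared with the 45) and 69 with only transcripts of matching ends summed, and 45 to 52 with a replicate left out. Peel against pectin gave 4 members called lower with a pseudocount of 5, 7 with the 2 groups alone, 6 without the 2 shallow libraries, 1 when joined by identifier, and 0 to 2 with a replicate left out. For Avicel against no carbon, leaving out a replicate gave 1 to 3 members higher and 0 to 3 lower, and leaving out both shallow libraries 2 lower. For no carbon against sucrose the lower calls were 1 with a pseudocount of 0.1 or no filter, 6 under quantile normalization and 1 to 3 with a replicate left out, and the higher calls 23 to 30. For Avicel against sucrose they were 5 lower under quantile normalization, and 23 to 29 higher and 3 to 4 lower with a replicate left out. Neighbours called higher were 17 to 23 on pectin and 11 to 20 on peel with a replicate left out. The replicate number was also used as a block, although the labels do not say what it marks. Avicel against sucrose then gave 26 higher and 3 lower, and no carbon against sucrose 29 and 2. Avicel against no carbon gave 2 and 0, and peel against pectin 0 and 0. Neighbours called higher were then 20 on pectin and 15 on peel. The causes of these shifts were not tested. The 14 members nearer to pectin and peel on xylan stayed 14 in number under both scalings. Shallow libraries, 2 peel libraries and 1 xylan library limit the precision, and no depth could be derived for the 6 new libraries. Protein and promoter sequences were not used here.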
